A study of Homo sapiens with 8 samples.

Results

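The super elongation complex (SEC) and the kinase P-TEFb were examined as 10 genes in HCT116 cells depleted of CDK8: the scaffolds AFF4 and AFF1, the elongation factors ELL and ELL2, the YEATS-domain subunits MLLT1 and MLLT3, and, for P-TEFb, the kinase CDK9, its cyclins CCNT1 and CCNT2 and its inhibitor HEXIM1. They were taken by annotated gene symbol and make up 10 of the 18417 genes measured, on 11 probe sets. The set was assembled around AFF4, which was chosen by its lower level in shCDK8 than in shControl cells, so differences between the lines are given below as values and counts, without p-values, and nothing is read from those counts. P-values are kept for the serum comparisons. RNA polymerase II pauses shortly after initiation at many genes, and P-TEFb releases it by phosphorylating the polymerase and the pausing factors. HEXIM1 and the 7SK RNA hold part of P-TEFb in an inactive pool. AFF4 and AFF1 are long flexible proteins on which active P-TEFb, an ELL protein and MLLT1 or MLLT3 assemble into the SEC, which is known for acting at rapidly induced genes such as immediate-early and heat shock genes.

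HCT116 is an established epithelial line from a human colorectal carcinoma. The cells carried either a non-targeting hairpin (shControl) or a hairpin against CDK8 (shCDK8), the kinase of the Mediator kinase module, and were kept for 40 h without serum. They were harvested at that point (starved) or 30 min after addition of medium with 10% fetal bovine serum (serum). Each of the 4 groups had 2 arrays, 8 in all, and levels are log2 values of Affymetrix probe sets. The labels do not state whether duplicates are separate cultures, and the errors and p-values may therefore reflect technical spread alone. Each line stands for 1 hairpin, and the knockdown cannot be told apart from any other difference between the lines. The only probe set for CDK8 (7968199) is annotated to CDK8 and ADRA1B together. It read 9.23, 9.20, 9.22 and 9.19 on the 4 shControl arrays and 7.09, 6.99, 7.04 and 7.06 on the 4 shCDK8 arrays, lower on every array labelled shCDK8. Median levels per array lay between 7.07 and 7.11, and duplicates correlated across genes at r of 0.997 to 0.998. Group means of the 8 epithelial markers ran from 5.50 for VIL1 to 12.71 for KRT8, with EPCAM at 11.72 to 11.79. Those of the 7 fibroblast markers ran from 3.21 for LUM to 8.45 for COL1A1, and those of the 7 blood and endothelial markers from 3.58 for PTPRC to 6.14 for CD14.

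AFF4, which holds the SEC together, was lower in every shCDK8 array. It read 9.14 and 9.38 in starved shControl cells, 9.41 and 9.43 in serum-treated shControl cells, 7.32 and 7.26 in starved shCDK8 cells and 7.44 and 7.26 in serum-treated shCDK8 cells. The lowest shControl array lay 1.69 log2 units above the highest shCDK8 array. The difference was -1.97 ± 0.09 (SE of the model) in starved cells, or 3.91-fold, and -2.07 ± 0.09 after serum, or 4.19-fold. Among all 18417 genes this was the 8th largest fall in starved cells and the 7th largest after serum. Each array measures RNA from a whole culture, so fewer cells with the transcript and less transcript per cell cannot be told apart.

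**Figure D1:**
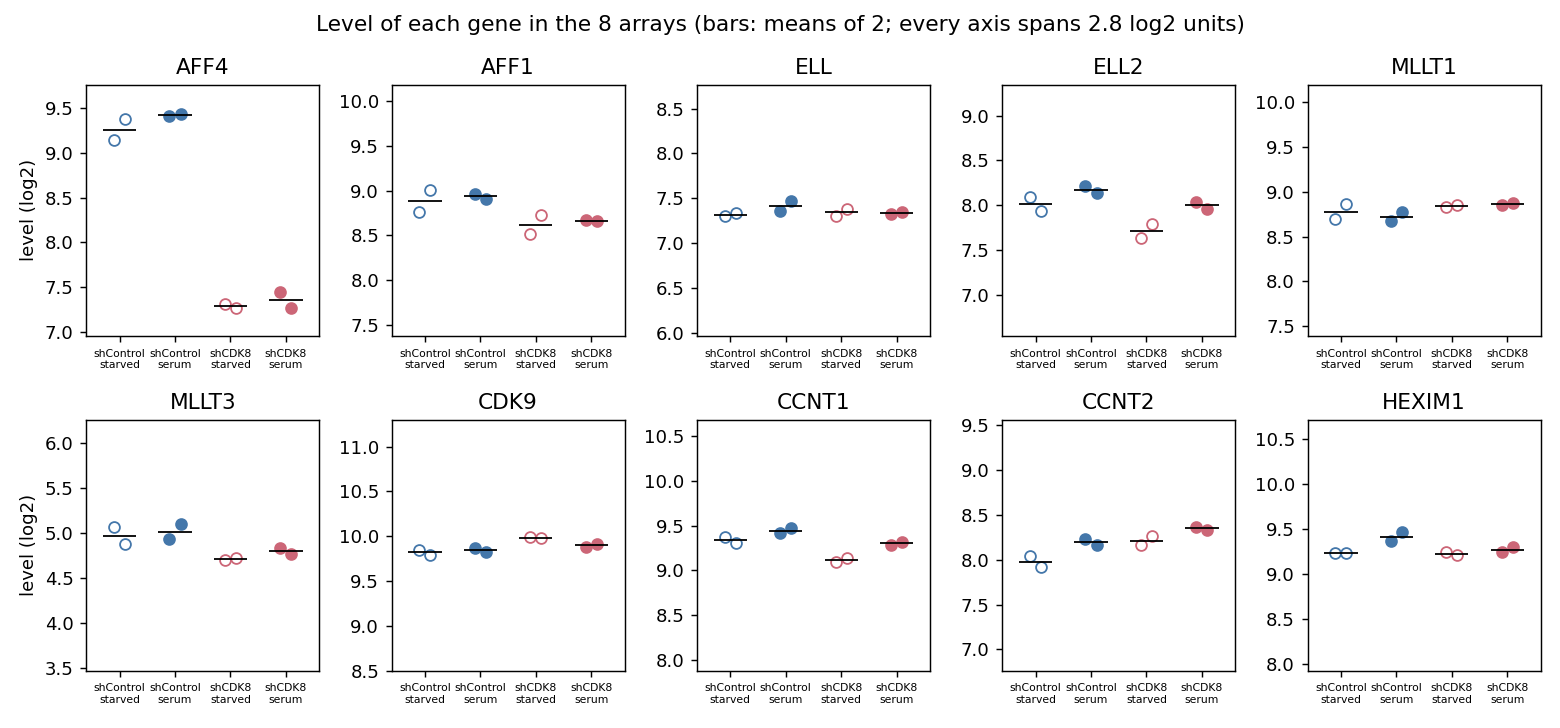
Level (log2, vertical axis) of each of the 10 genes on the 8 arrays, with open points for starved and filled points for serum-treated cells, blue for shControl and red for shCDK8, and bars at the means of 2 arrays. AFF4 sits between 9.14 and 9.43 in shControl cells and between 7.26 and 7.44 in shCDK8 cells, while the other 9 genes differ between the lines by 0.30 or less.

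Genes beside AFF4 on chromosome 5, the 5 measured on either side in the RefSeq gene order, differed between the lines by -0.13 to 0.17. LEAP2 and GDF9, which precede AFF4 in that order, differed by 0.14 and 0.04 in starved cells and by -0.11 and -0.13 after serum. ZCCHC10 and HSPA4, a heat shock protein of the HSP110 class, follow it. ZCCHC10 differed by 0.09 and -0.13, and HSPA4 by 0.04 and 0.08. The largest difference among the 10 neighbours was 0.17 ± 0.08, at SHROOM1 after serum.

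**Figure D2:**
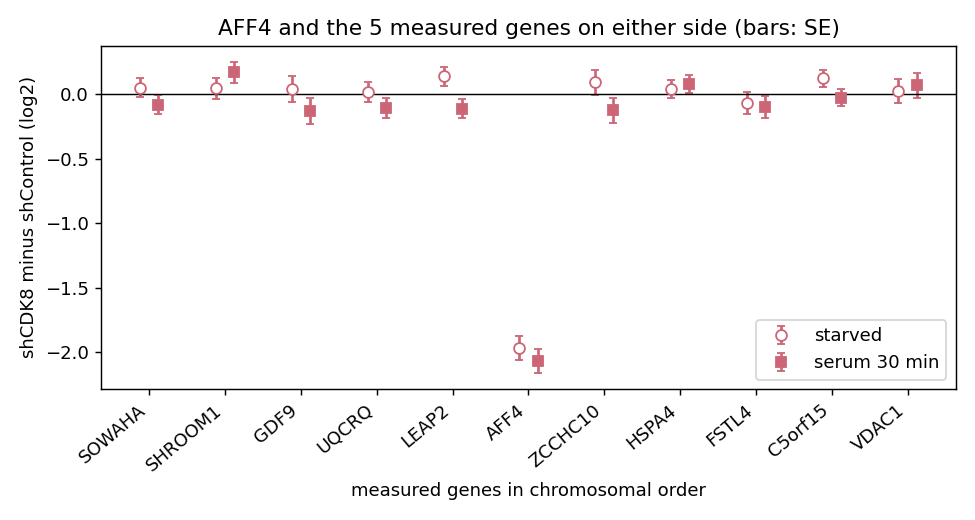
Difference between the lines (shCDK8 minus shControl, log2, vertical axis) for AFF4 and the 5 measured genes on either side in chromosomal order, with open circles for starved cells, filled squares for serum-treated cells and bars for the SE. AFF4 stands at -1.97 and -2.07, and its neighbours lie between -0.13 and 0.17.

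The sequence just upstream of AFF4 is shown because it belongs to the gene with the large difference, and those of CCNT2 and HEXIM1 because these genes had the 2 largest serum changes in shControl cells. They are the 250 bases before the RefSeq start site in GRCh38.p14, read 5′ to 3′ along the gene. Capitals mark matches, on either strand, to the GC box with letters GGGCGG, the box with letters CCAAT, the E-box with letters CACGTG or the TATA box with letters TATAAA. The AFF4 sequence is chr5:132963635-132963884 on the minus strand, that of CCNT2 is chr2:134918572-134918821 on the plus strand and that of HEXIM1 is chr17:45148225-45148474 on the plus strand.
AFF4: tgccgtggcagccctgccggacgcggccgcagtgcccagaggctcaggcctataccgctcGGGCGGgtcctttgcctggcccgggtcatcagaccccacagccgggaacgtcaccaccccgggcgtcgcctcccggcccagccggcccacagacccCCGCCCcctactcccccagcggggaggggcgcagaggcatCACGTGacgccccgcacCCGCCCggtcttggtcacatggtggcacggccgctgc
CCNT2: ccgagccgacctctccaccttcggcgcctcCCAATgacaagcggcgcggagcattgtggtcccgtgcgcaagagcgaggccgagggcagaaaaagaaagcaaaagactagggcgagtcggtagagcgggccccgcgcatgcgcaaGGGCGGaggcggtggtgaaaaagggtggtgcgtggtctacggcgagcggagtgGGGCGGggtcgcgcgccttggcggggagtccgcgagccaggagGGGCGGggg
HEXIM1: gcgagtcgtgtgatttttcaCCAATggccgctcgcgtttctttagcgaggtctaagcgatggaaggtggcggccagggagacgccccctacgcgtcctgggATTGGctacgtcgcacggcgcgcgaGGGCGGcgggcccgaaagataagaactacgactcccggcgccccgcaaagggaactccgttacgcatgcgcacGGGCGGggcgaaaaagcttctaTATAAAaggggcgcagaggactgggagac

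The AFF4 sequence is 75.2% G and C, against a median of 58.0% over all 35116 upstream sequences in the table. Among the sequences of the 10 genes this share ran from 29.6% at 1 CCNT1 entry to 82.0% at CDK9. The AFF4 sequence holds 3 GC boxes, which 42.64% of all sequences hold at least once. It also holds 1 E-box at -54 to -49 from the start site, which 6.34% of all sequences hold. CCNT1 and MLLT1 hold the E-box too, so neither trait is particular to AFF4. CCNT2 has 3 GC boxes and CCAAT at -220 to -216, the latter found in 32.01% of sequences. HEXIM1 has TATAAA at -29 to -24, found in 10.72% of sequences, together with 2 GC boxes and 2 CCAAT matches. None of these 3 windows holds the CArG box, the AP-1 motif with letters TGACTCA, the CRE motif with letters TGACGTCA or the ETS motif with letters CCGGAAGT, which 1.16%, 4.20%, 1.65% and 3.42% of all sequences hold. The 8 motifs searched do not overlap in these windows. Entries were matched for 9 of the 10 genes. Of these, CDK9 and CCNT1 hold the ETS motif.

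Beyond AFF4, the scaffold AFF1 showed a small difference of the same sign. AFF1 read 8.77 and 9.01 in starved and 8.97 and 8.91 in serum-treated shControl cells, and 8.51 and 8.72 in starved and 8.67 and 8.66 in serum-treated shCDK8 cells. All 4 shCDK8 arrays were below all 4 shControl arrays, as for 12.5% of all genes. The differences were -0.27 ± 0.10 and -0.28 ± 0.10, or 1.20-fold and 1.21-fold. Its starved duplicates had an SD of 0.17 for shControl and 0.15 for shCDK8.

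The elongation factors and YEATS subunits differed little between the lines. ELL2, which together with ELL raises the catalytic rate of the polymerase, read 8.09 and 7.94 in starved and 8.22 and 8.13 in serum-treated shControl cells, and 7.64 and 7.79 in starved and 8.04 and 7.96 in serum-treated shCDK8 cells. It was lower in shCDK8 cells, with a difference of -0.30 ± 0.08 in starved cells, and after serum the difference was -0.17 ± 0.08. A further probe set annotated to ELL2 (7921344) gave -0.12 and -0.01, so the 2 probe sets differ in size. RefSeq lists ELL2 pseudogenes, among them ELL2P1, whose near-identical sequence may share probes with ELL2, and the value of either probe set is uncertain to that extent. ELL differed by 0.03 ± 0.07 and -0.08 ± 0.07, and its arrays overlapped between the lines.

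MLLT1 and MLLT3 are paralogs that read acetylated and crotonylated histones. MLLT1 lay between 8.67 and 8.86 on the shControl arrays and between 8.83 and 8.87 on the shCDK8 arrays, with overlap, and differed by 0.06 ± 0.08 in starved cells and 0.14 ± 0.08 after serum. MLLT3 read 5.06, 4.88, 4.93 and 5.10 in shControl cells and 4.70, 4.72, 4.83 and 4.76 in shCDK8 cells. All 4 shCDK8 arrays were below all 4 shControl arrays for MLLT3, as for 12.5% of all genes, and the differences were -0.26 ± 0.08 and -0.22 ± 0.08. The mean level of MLLT3 lay below the 25th percentile of all genes, so these are differences of a dim probe set.

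Within P-TEFb the 2 cyclins differed in opposite directions. CCNT1, the main cyclin partner of CDK9, read 9.38 and 9.31 in starved shControl and 9.10 and 9.14 in starved shCDK8 cells, a difference of -0.23 ± 0.07. After serum it read 9.41 and 9.48 against 9.28 and 9.32, a difference of -0.14 ± 0.07. CCNT2, its paralog, read 8.04 and 7.92 in starved shControl and 8.16 and 8.26 in starved shCDK8 cells, a difference of 0.24 ± 0.07, and 0.15 ± 0.07 after serum. In both cyclins the arrays of the lines overlapped when both times were pooled. CDK9 read 9.85 and 9.79 in starved and 9.87 and 9.82 in serum-treated shControl cells, and 9.99 and 9.97 in starved and 9.88 and 9.91 in serum-treated shCDK8 cells. It was thus higher in all 4 shCDK8 arrays, as were 13% of all genes, by 0.16 ± 0.06 and 0.05 ± 0.06. The separation was narrow, with the highest shControl array at 9.870 and the lowest shCDK8 array at 9.877. HEXIM1 differed by -0.01 ± 0.07 in starved cells and by -0.14 ± 0.07 after serum.

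The set was built on the comparison of the lines, so a test between them reuses the values that chose AFF4, and nothing is read from the following counts. In limma 3 of the 10 genes (AFF4, ELL2 and CCNT1) were called lower in starved shCDK8 cells, beside 6.28% of all genes, and 0 higher, beside 7.13%. After serum 1 (AFF4) was called lower, beside 6.54% of all genes, and 0 higher, beside 7.7%. CCNT1 was not called when any 1 of the 8 arrays was left out, and ELL2 was not called without starved array 1 of shControl, either serum array of shControl or starved array 1 of shCDK8. Without starved array 1 of shControl, AFF1 was called. When the variance prior followed intensity, AFF1 was called lower at both times, and CDK9 and CCNT2 were called higher in starved cells. All 4 shCDK8 arrays lay below all 4 shControl arrays for 3 of the 10 genes (AFF4, AFF1 and MLLT3), as they did for 12.5% of all genes, and above them for 1 (CDK9), as for 13% of all genes.

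**Figure D3:**
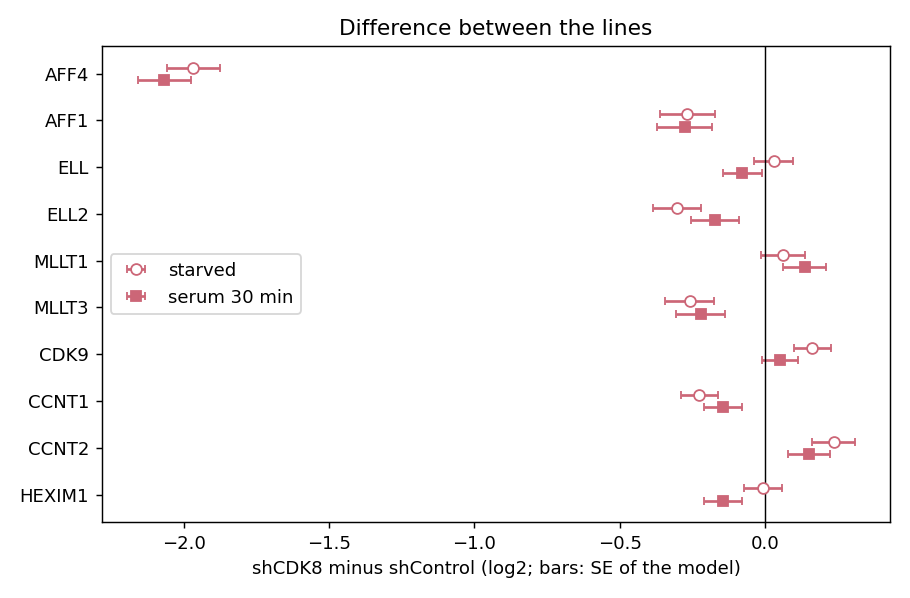
Difference between the lines (shCDK8 minus shControl, log2, horizontal axis) for the 10 genes, with open circles for starved cells, filled squares for serum-treated cells and bars for the SE of the model. AFF4 lies at -1.97 and -2.07, and the other 9 genes lie between -0.30 and 0.24.

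The first tested question was whether 30 min of serum changes the genes of the complex in control cells. In shControl cells none of the 10 passed limma's test after adjustment over all genes, where 85 of 18417 genes (0.462%) passed, and 2 of 10 (CCNT2 and HEXIM1) had an unadjusted p below 0.05, as did 9.02% of all genes. The values ran from -0.05 to 0.22 on the log2 scale, with a median of 0.10 against -0.01 over all genes, and 9 of 10 were above 0, as were 44.1% of all genes. CCNT2 changed by 0.22 ± 0.07, from 8.04 and 7.92 to 8.24 and 8.16 (adjusted p = 0.419), with a 95% interval of 1.04-fold to 1.30-fold. HEXIM1, known to be induced when P-TEFb leaves its inactive pool, changed by 0.18 ± 0.07, from 9.24 and 9.23 to 9.37 and 9.46 (adjusted p = 0.475). AFF4 changed by 0.16 ± 0.09 (adjusted p = 0.642), and its interval ran from 0.97-fold to 1.29-fold. It was 0.05 without starved array 1 of shControl and 0.28 without its starved array 2. CDK9 changed by 0.03 ± 0.06 and MLLT1 by -0.05 ± 0.08. Both serum arrays lay above both starved arrays for 6 of the 10 genes (AFF4, ELL, ELL2, CCNT1, CCNT2 and HEXIM1), as they did for 16.2% of all genes. The genes were read on the same arrays, so these are not 6 independent observations.

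Serum-treated shCDK8 cells likewise had none of the 10 genes past the threshold against starved ones, where 47 of all genes (0.255%) passed, and 2 of 10 (ELL2 and CCNT1) had an unadjusted p below 0.05, as did 9.59% of all genes. ELL2 changed by 0.29 ± 0.08 (adjusted p = 0.392), with an interval of 1.08-fold to 1.39-fold, and its further probe set changed by 0.23. CCNT1 changed by 0.18 ± 0.07, from 9.10 and 9.14 to 9.28 and 9.32 (adjusted p = 0.463). CCNT2 changed by 0.14 ± 0.07, AFF4 by 0.06 ± 0.09 and HEXIM1 by 0.04 ± 0.07. CDK9 had the largest downward value, -0.08 ± 0.06 (adjusted p = 0.692). Both serum arrays lay above both starved arrays for 4 genes (ELL2, MLLT3, CCNT1 and CCNT2), as for 19.1% of all genes.

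Averaged over both lines, ELL2 had the largest serum change of the 10, 0.22 ± 0.06 (adjusted p = 0.165), followed by CCNT2 with 0.18 ± 0.05 (adjusted p = 0.198), CCNT1 with 0.14 ± 0.05 (adjusted p = 0.231) and HEXIM1 with 0.11 ± 0.05 (adjusted p = 0.316). These 4 had an unadjusted p below 0.05, as did 14.5% of all genes, and none of the 10 passed after adjustment, where 140 of all genes (0.760%) did. AFF4 changed by 0.11 ± 0.07, AFF1 by 0.05 ± 0.07, ELL by 0.05 ± 0.05, MLLT3 by 0.06 ± 0.06, MLLT1 by -0.02 ± 0.05 and CDK9 by -0.03 ± 0.04. The upper ends of the intervals in the average lay at 1.28-fold for ELL2 and at 1.20-fold for AFF4, so larger rises than these were outside the intervals.

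**Figure D4:**
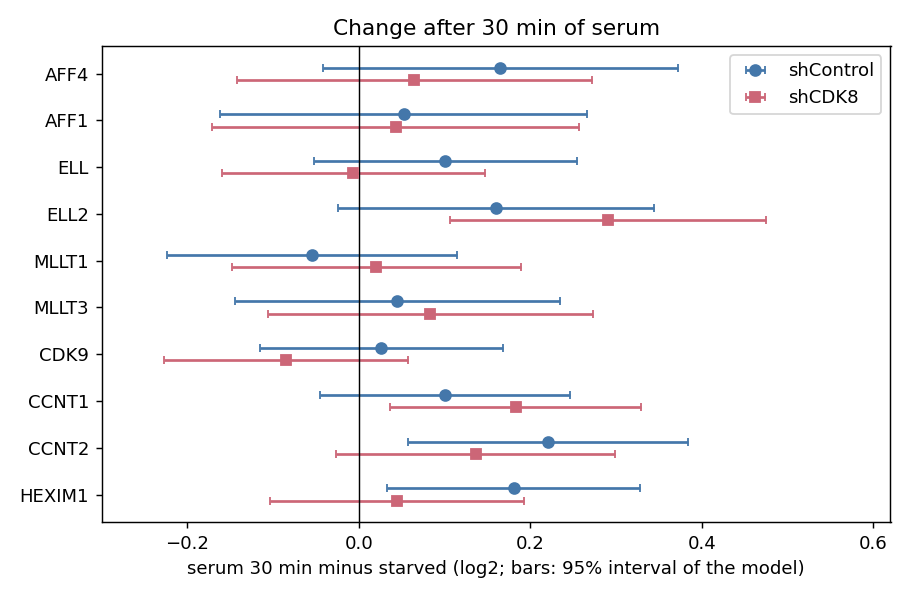
Change after 30 min of serum (serum minus starved, log2, horizontal axis) for the 10 genes in shControl (blue circles) and shCDK8 cells (red squares), with bars for the 95% interval of the model. Points lie between -0.08 and 0.29, and the intervals of CCNT2 and HEXIM1 in shControl and of ELL2 and CCNT1 in shCDK8 cells lie above 0 before adjustment over all genes.

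The next question was whether CDK8 depletion alters these serum changes. In the difference between the lines' responses none of the 10 genes passed, none had an unadjusted p below 0.05, and 0% of all genes passed after adjustment in limma (703 of 18417, or 3.82%, at an unadjusted p below 0.05). The largest values were those of HEXIM1 (-0.14 ± 0.09, interval -0.35 to 0.07) and ELL2 (0.13 ± 0.12, interval -0.13 to 0.39), each with an adjusted p of 1.00. For AFF4 the difference was -0.10 ± 0.13 with an interval of -0.39 to 0.19. AFF1 stood at -0.01 ± 0.13 and CDK9 at -0.11 ± 0.09.

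Other genes of the elongation pathway were counted by list, and some listed genes, among them LARP7, RN7SK, NELFE and the serum gene EGR2, were not analysed here. No gene passed the averaged serum test among 11 further SEC partners and AFF or ELL relatives, 7 regulators of P-TEFb, 25 pausing and elongation factors and 12 RNA polymerase II subunits. List medians lay between -0.01 and 0.01 against -0.01 over all genes, and 2, 1, 2 and 0 of their genes had an unadjusted p below 0.05, beside 14.5% of all genes. Among SEC partners the histone methyltransferase KMT2A, whose fusions in leukaemia join it to AFF1, AFF4, MLLT1, MLLT3 or ELL, changed by 0.22 ± 0.07 (adjusted p = 0.239). ICE1, a scaffold of the little elongation complex that also holds ELL, changed by 0.18 ± 0.05. HEXIM2, the paralog of HEXIM1, had the largest value among P-TEFb regulators, -0.15 ± 0.05 (adjusted p = 0.236), and JMJD6 followed with 0.13 ± 0.06. TCEA3, a cleavage factor of the TFIIS family, and the polymerase kinase CDK12 each changed by 0.12, and POLR2A, the largest polymerase subunit, by 0.11 ± 0.06.

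Serum-induced genes of the kind the SEC acts on responded strongly on the same arrays. Of 11 such genes 10 rose in each line and none fell. MYC was the exception, with an averaged change of 0.18 (limma, adjusted p = 0.150). Of all genes, 0.462% passed in either direction in shControl cells and 0.255% in shCDK8 cells. The list was chosen for genes induced by serum, with earlier results of these data known, so nothing is read from its count. FOS, a subunit of AP-1, rose from 8.85 and 8.70 to 12.12 and 12.04 in shControl cells and from 7.42 and 7.63 to 11.16 and 11.39 in shCDK8 cells. NR4A1, an orphan nuclear receptor, rose by 2.85 ± 0.11 and 2.62 ± 0.11 on the log2 scale. The median change of the list was 2.85 for shControl and 2.33 for shCDK8. No gene of it passed the test of the difference, with 6 of 11 at an unadjusted p below 0.05, beside 3.82% of all genes. These 6 went in both directions. EGR1 (0.48) and FOS (0.44) rose more in shCDK8 cells. The rest of the 6 rose less, with the largest values at EGR3 (-1.10) and JUN (-0.71).

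Between the lines these lists held genes called in both directions, to be set beside 6.28% of all genes called lower and 7.13% called higher in starved cells and 6.54% and 7.7% after serum. Of the SEC relatives MLLT6 (0.41 ± 0.08) and MLLT10 (0.28 ± 0.07) were higher in starved shCDK8 cells, and both, with ICE1 (0.31 ± 0.08), were higher after serum. Among the pausing and elongation factors 5 were lower and 2 higher in starved cells. TCEA3 was lower, with a difference of -0.78 ± 0.10, reading 6.37 and 6.18 against 5.50 and 5.50. SUPT4H1, a subunit of the pausing factor DSIF, was higher by 0.50 ± 0.07, ELOA, the active subunit of elongin, by 0.36 ± 0.07, and NELFCD, a subunit of the pausing factor NELF, was lower, at -0.32. No P-TEFb regulator or polymerase subunit passed in either line comparison, where 13.4% and 14.2% of all genes passed. Of the serum genes 4 were lower and 1 higher in starved shCDK8 cells, and 9 lower and 1 higher after serum.

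**Figure D5:**
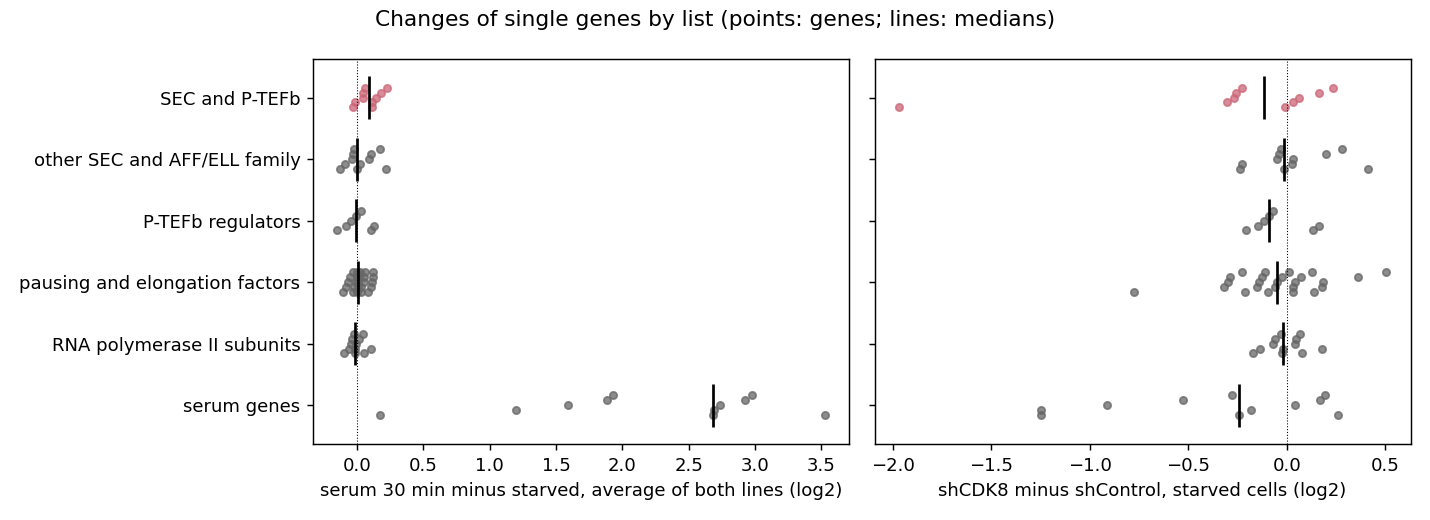
Changes of single genes (points) by list, with the list's median as a line: left, serum minus starved averaged over both lines (log2), right, shCDK8 minus shControl in starved cells (log2). The SEC and P-TEFb genes lie between -0.03 and 0.22 on the left, where 10 of 11 serum genes lie at 1.20 or above, and AFF4 is the point at -1.97 on the right.

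The genes whose profile was most like that of AFF4 were PALLD, DEPDC1 and ARAF. Likeness was the root mean square difference over the 8 arrays after each gene was centred on its mean, and it was 0.12, 0.18 and 0.19 log2 units. The profile of AFF4 is mainly the difference between the lines by which it was chosen. The measure therefore picks genes with a line difference of like size, and nothing further is read from the match. PALLD, an actin-associated protein, read 10.88 to 10.90 on the shControl arrays and 8.69 to 8.75 on the shCDK8 arrays. The kinase ARAF differed between the lines by -1.66 in starved cells and -1.76 after serum, and DEPDC1 by -2.01 and -1.90. Their serum changes in the average of both lines were 0.01, 0.13 and 0.00 for PALLD, DEPDC1 and ARAF.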

How the data were processed

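Total RNA of 8 HCT116 samples was measured on 1 Affymetrix array each, with groups assigned from the labels. Deposited values are log2 probe set levels made by the authors with RMA (background correction, quantile normalization and summary), per the submitters' processing notes. Neither the RMA version nor the build nor joint normalization of the arrays is given in those sources. Of 33297 probe sets, 19460 were annotated to 1 gene; genes with several were represented by the one with the highest mean, leaving 18417 genes, with no filter. Levels of different genes are not compared, apart from the marker ranges, the percentile given for MLLT3 and the dim-gene filter.

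A model with 4 group means was fitted to all genes with limma 3.58.1 in R 4.3.3 (4 residual and 5.49 prior degrees of freedom). P-values are two-sided with Benjamini-Hochberg adjustment over every gene of a contrast, with a threshold of 0.05. Intervals are 95% from the same model, unadjusted. The procedure was tested on simulated data for the averaged serum comparison. It recovered 64% of 50 genes shifted by 0.25 log2 units and 100% of those shifted by 0.5. Of its 201 calls, 19 were false. Smaller shifts and comparisons within a single line were not simulated. Named genes were the 10 members, up to 4 genes of each list by size of change, called genes first, the AFF4 neighbours and the 3 genes most like AFF4 and most like the member with the largest averaged serum change. The members and lists were chosen with earlier results of these data known. The number of arrays limits the precision. Replicate numbers were checked for pairing and treated as unpaired. Alternatives were an intensity trend, the compared arrays alone, a replicate block, a filter on dim genes, cyclic loess, median centring, averaging a gene's probe sets and leaving out each array. Upstream sequences are from RefSeq. Figures were drawn with matplotlib 3.10.9.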

Additional observations from a re-analysis of the deposited data

How the results depend on the processing

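No gene of the set passed a serum comparison or the difference of responses under any alternative run, with adjusted p for ELL2 in the average of 0.0719 to 0.426. All 576 single serum changes refitted under an alternative kept an adjusted p above 0.05. The AFF4 difference ranged from -2.09 to -1.85 in starved cells and from -2.16 to -1.98 after serum when arrays were left out. Tests between the lines reuse the values that chose AFF4, so nothing is read from the counts between the lines given here. The count passing between the lines in starved cells was 3, beside 13.4% of all genes. With an intensity trend it was 6 (AFF1 added as lower, CDK9 and CCNT2 as higher), beside 17% of all genes. With the dim-gene filter it was 4 (CCNT2 added as higher), beside 20% of the genes kept. Averaged probe sets gave 2, beside 13.4% of all genes. A fit of the starved arrays alone gave 1, beside 10.7%, and the replicate block gave 1, beside 12.5%. After serum the count was 1, beside 14.2% of all genes. It was 2 with an intensity trend (AFF1 added), beside 18.3%, and 2 with the serum arrays alone, beside 12.6%. Correlations of the deviations of equally numbered arrays lay between -0.187 and 0.126 over the 6 pairs of groups. With 2 arrays a group these values cannot decide whether equal numbers pair the samples. The labels do not state a pairing, and none was used in the main fit. With the shCDK8 numbers crossed, a pairing chosen after seeing the data, the starved count was 2. The dim-gene filter removed MLLT3, which has no value there.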

Other observations

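The genes most like ELL2 over the 8 arrays were TRNT1, RLF and CD55, with root mean square differences of 0.05, 0.05 and 0.05 log2 units from its centred profile. CD55, a complement-regulating surface protein, changed after serum by 0.24 in shControl and 0.25 in shCDK8 cells, and RLF by 0.17 and 0.21. ELL2 was taken for its averaged serum change, and the measure picks genes of like profile. Nothing further is read from the match.

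AFF1, KMT2A and POLR2A, singled out after their values were seen, read lower on starved array 1 than on starved array 2 in both lines. AFF1 read 8.77 against 9.01 in shControl and 8.51 against 8.72 in shCDK8 cells. KMT2A read 8.68 against 8.94 and 8.75 against 8.93, and POLR2A 9.93 against 10.17 and 9.80 against 9.95. Over all genes the deviations of the starved arrays numbered 1 correlated at -0.187 between the lines, a value across genes that are not independent.

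JMJD6, a Jumonji-domain protein, changed after serum by 0.27 for shControl and -0.02 for shCDK8. The difference of -0.29 ± 0.12 did not pass (limma, adjusted p = 1.00).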
